A study of Caenorhabditis elegans with 9 samples.

Results

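Starved first-stage larvae (L1) of the ogt-1 deletion mutant were set against wild type L1 larvae starved in the same way, and the difference was read across gene families and pathways. The 3 ogt-1 arrays and the 3 wild type arrays were compared over every probe set of the Caenorhabditis elegans array that is no control and carries 1 gene symbol, 20766 of the 22548 probe sets tested. A further 887 probe sets had several symbols and 895 had none. Each gene was read by its brightest probe set with 1 symbol, which gave 17118 genes. The mutant larvae carried the deletion allele ogt-1(ok430), and the wild type larvae carried no listed allele. Embryos taken from gravid adults by bleaching hatched in sterile buffer without food, and the larvae were collected after 48 h. All larvae were starved, so the comparison holds no fed state. RNA came from whole larvae, in which fewer cells of a type and less RNA per cell cannot be told apart. The series also holds 3 arrays of larvae with the deletion oga-1(ok1207), which were kept in the fit to estimate the spread and are used below only to ask whether a change differed between the mutants.

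OGT-1 is the enzyme that attaches the single sugar N-acetylglucosamine (O-GlcNAc) to serines and threonines of proteins in the nucleus and cytoplasm, and OGA-1 is the enzyme that removes it. The sugar donor comes from the hexosamine pathway, which draws on glucose, amino acid, fatty acid and nucleotide metabolism. In C. elegans both single mutants are viable and fertile. L1 larvae that hatch without food stop developing and live on stored reserves until food arrives. Among the proteins known to carry O-GlcNAc are transcription factors, nuclear pore proteins and chromatin regulators.

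Values are log2 array values as the authors deposited them, so a difference of 1 is a 2-fold change. Array medians lay between 6.80 and 6.83 for ogt-1 and between 6.83 and 6.87 for wild type. The 5 probe sets for yeast genes, which match no worm gene, averaged at most 6.26 in any strain. Where the dimmer strain of a gene averaged 6.26 or less, that strain read no brighter than these controls, and the fold change is given as "at least", on the assumption that background adds to the signal. This applied to 7174 of the 17118 genes. The brighter of the ogt-1 probe sets read 11.53, 11.42 and 11.14 on the ogt-1 arrays, against 11.86, 11.45 and 11.43 on the wild type arrays. The groups overlapped (difference -0.22 ± 0.16, SE, adjusted p = 0.581), and which part of the gene the allele removes was not analysed here, so this probe set does not check the label. The RNA of starved larvae was checked against 9 marker lists. The median of the 10 body wall muscle markers lay at 10.48 to 10.87 on the ogt-1 arrays and at 10.08 to 10.69 on the wild type arrays, and that of the 10 neuronal markers at 10.23 to 10.34 on the ogt-1 arrays and at 10.30 to 10.37 on the wild type arrays. Of the 9 sperm markers read, 2 averaged above the control level in ogt-1 and 3 in wild type. Other lists for stages not sampled read higher. Of the 9 markers read for oocytes and adult intestine 7 averaged above the control level in both strains, and of the 10 early embryo markers 8 did. The median difference of a marker list ran from -0.22 for the pharynx to 0.20 for body wall muscle, and 3 of all markers passed the test (unc-54, mtl-2 and glh-1). For glh-1, a Vasa-like helicase of germ granules, the call ended with ogt-1 replicate 1, 2 or 3 or wild type replicate 1, 2 or 3 removed (highest adjusted p 0.179). The part of cell type content in the results below was not tested.

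Of the 17118 genes, 332 were higher in ogt-1 larvae (1.94%) and 407 were lower (2.38%) at a Benjamini-Hochberg adjusted p under 0.05 in limma. Over the 20766 probe sets the share called in either direction was 3.93%. The largest called fall was that of pud-4, whose family is named for proteins that are more abundant in daf-2 insulin receptor mutants. It read 4.82, 4.99 and 4.96 on the ogt-1 arrays, against 8.16, 8.11 and 8.25 on the wild type arrays, with no overlap, and fell at least 9.50-fold (adjusted p = 2.5e-06), and it differed from wild type by -2.94 in oga-1 larvae. Most changes were small: the median called rise was 0.63 and the median called fall -0.65, and 80 genes rose and 58 fell by at least 2-fold. Arrays of the strains did not overlap in any of the 739 called genes, nor in 23.4% of all genes read. With each array set to the same median the calls over all probe sets were 507 higher and 378 lower, against 403 higher and 479 lower as deposited, so which side holds more calls depends on the scaling. The median difference over all genes was -0.001, and over 4 equal classes of overall level it ran from -0.03 to 0.05, with 0.05 in the brightest class. Of the dimmest 4280 genes, 0.117% were called higher and 0.678% lower, whereas of the brightest 4280 genes 3.74% were called higher and 2.38% lower. Of the 739, 195 were read by probe sets whose suffix marks probes that may also bind relatives, among them dod-24, lys-2, lys-4, gcs-1, mtl-2, tre-2, odc-1, clpp-1, prg-1 and unc-54. Leaving out each of the 9 arrays in turn kept the call of 236 of the 739 genes in all 9 fits (107 higher, 129 lower), and the sign of the difference was kept for all 739. The counts depended on particular arrays: higher calls numbered 116 to 177 with ogt-1 replicate 2 or 3 or wild type replicate 2 or 3 removed, against 332 with all arrays, and lower calls 153 to 249 with ogt-1 replicate 2 or 3 or wild type replicate 1 removed, against 407. A gene named below kept its call in all 9 fits unless the arrays that ended it are given. Between ogt-1 and oga-1 larvae, 0.532% of the genes read were called in either direction.

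**Figure D1:**
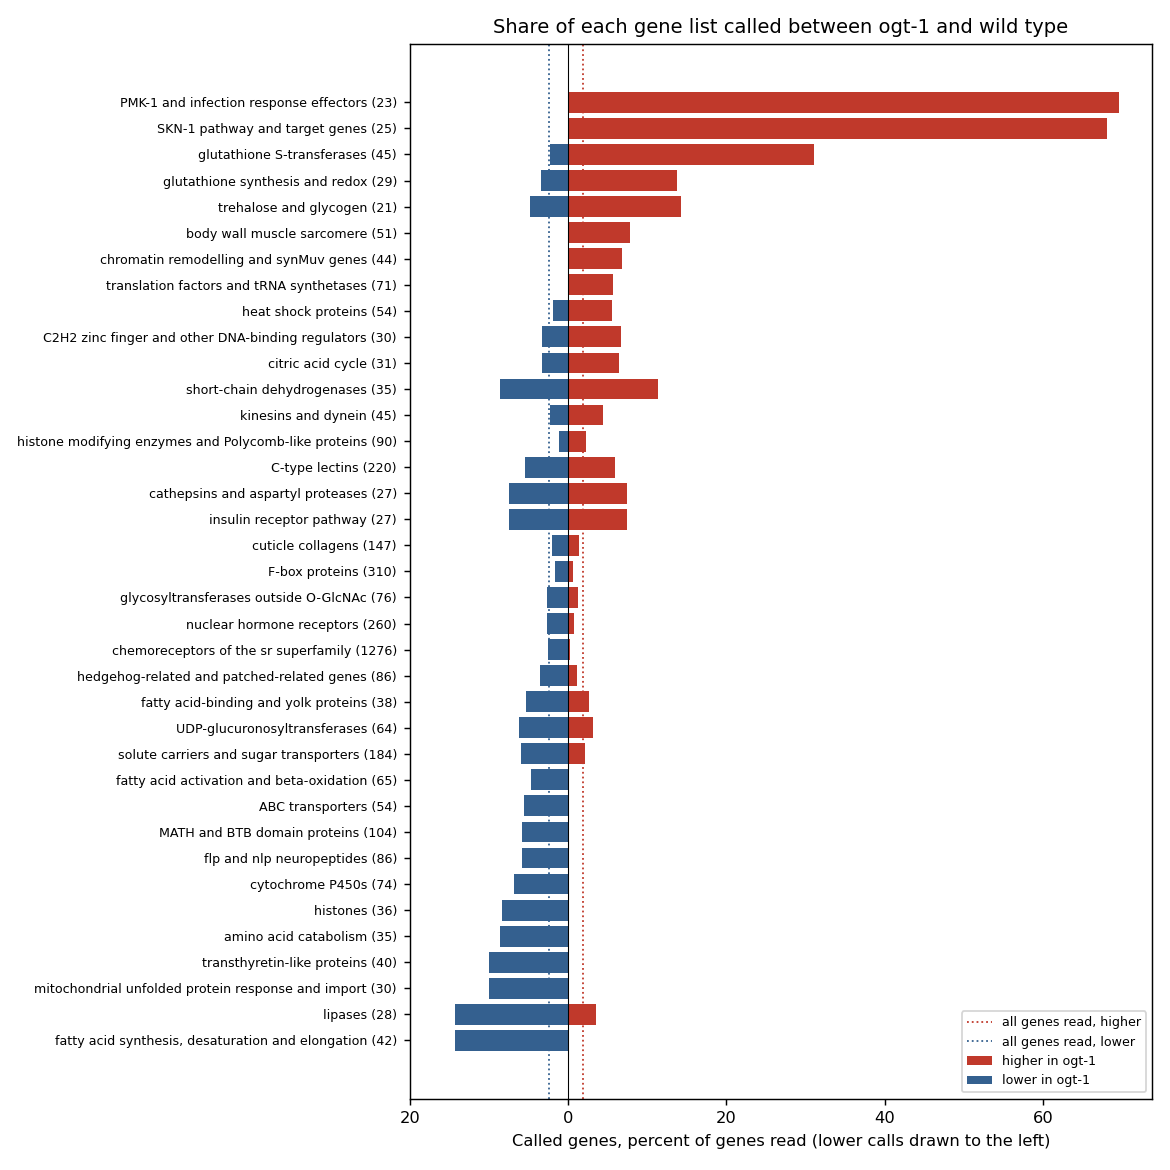
Bars give, for each gene list of 20 or more genes with 3 or more called, the percent of its genes called higher (right, red) or lower (left, blue) in ogt-1 than in wild type larvae, and the number of genes read stands in brackets. The list of class w serpentine receptors (114 genes, 3 called lower) meets this rule but is not drawn. Dotted lines mark the shares over all genes, 1.94% higher and 2.38% lower. The infection response and SKN-1 lists stand far to the right, and the fatty acid and lipase lists reach farthest left. Lists were chosen with earlier results of these data known.

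Most genes of the SKN-1 pathway rose. SKN-1, the worm counterpart of the Nrf transcription factors, turns on enzymes that conjugate and excrete electrophiles, and the WD40 protein WDR-23 targets it for degradation. Of 25 genes read, 17 rose (68%, against 1.94% of all genes), 0 fell and 24 lay above 0, with a median difference of 1.04. The list was chosen with earlier results of these data known, so this share is a description and not a test. The nitrilase homologue nit-1 read 11.37, 11.38 and 11.23 on the ogt-1 arrays, against 8.79, 8.38 and 9.24 on the wild type arrays. Its groups did not overlap, and it rose 5.73-fold (2.52 ± 0.18, SE, n = 3 each, adjusted p = 1.14e-05). The glutathione S-transferase gst-38 read 10.05, 10.37 and 10.29 on the ogt-1 arrays, against 7.96, 7.71 and 7.09 on the wild type arrays, a rise of 6.27-fold (2.65 ± 0.21, adjusted p = 3.21e-05). For gst-10, an enzyme that also conjugates the lipid peroxidation product 4-hydroxynonenal, the values were 10.29, 10.34 and 10.35 on the ogt-1 arrays, against 8.71, 8.02 and 7.98 on the wild type arrays (2.09 ± 0.20, adjusted p = 0.000121). In both glutathione S-transferases every ogt-1 array lay above every wild type array.

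The remaining members are given by role. Besides gst-38 and gst-10, the glutathione S-transferases gst-12 (2.78), gst-30 (2.68), gst-14 (2.44, at least 5.44-fold), gst-4 (2.27), gst-6 (2.23), gst-7 (1.66) and gst-13 (1.15) rose. The UDP-glucuronosyltransferase ugt-13, which adds glucuronic acid or glucose to small molecules, rose at least 4.00-fold, and F56D5.3 rose at least 3.86-fold. The catalytic subunit of glutamate-cysteine ligase, gcs-1, rose by 0.81 ± 0.14 (adjusted p = 0.00702). The repressor of the pathway, wdr-23, averaged 12.07 ± 0.06 on the ogt-1 arrays, against 11.48 ± 0.12 on the wild type arrays (SD, n = 3 each), a rise of 0.59 ± 0.11 whose call was lost with ogt-1 replicate 2 removed (highest adjusted p 0.0745). The skn-1 transcript itself read 11.05, 11.01 and 10.90 on the ogt-1 arrays, against 10.89, 10.85 and 10.91 on the wild type arrays and did not pass (0.11 ± 0.09, adjusted p = 0.686). The calls of sdz-8 (1.04, named as a SKN-1-dependent zygotic transcript), gst-5 (0.92) and dhs-8 (0.41) were ended by single arrays. That of sdz-8 was lost with ogt-1 replicate 2 or 3 removed (highest adjusted p 0.0555), that of gst-5 with ogt-1 replicate 2 or 3 or wild type replicate 2 or 3 removed (highest adjusted p 0.135) and that of dhs-8 with ogt-1 replicate 1, 2 or 3 or wild type replicate 1, 2 or 3 or oga-1 replicate 1 or 3 removed (highest adjusted p 0.208). Members that did not pass were trxr-1 (0.08), prdx-2 (0.22), gsr-1 (0.36), sqst-1 (0.17), cdr-4 (0.55), C32H11.3 (0.08) and alh-5 (-0.57).

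**Figure D2:**
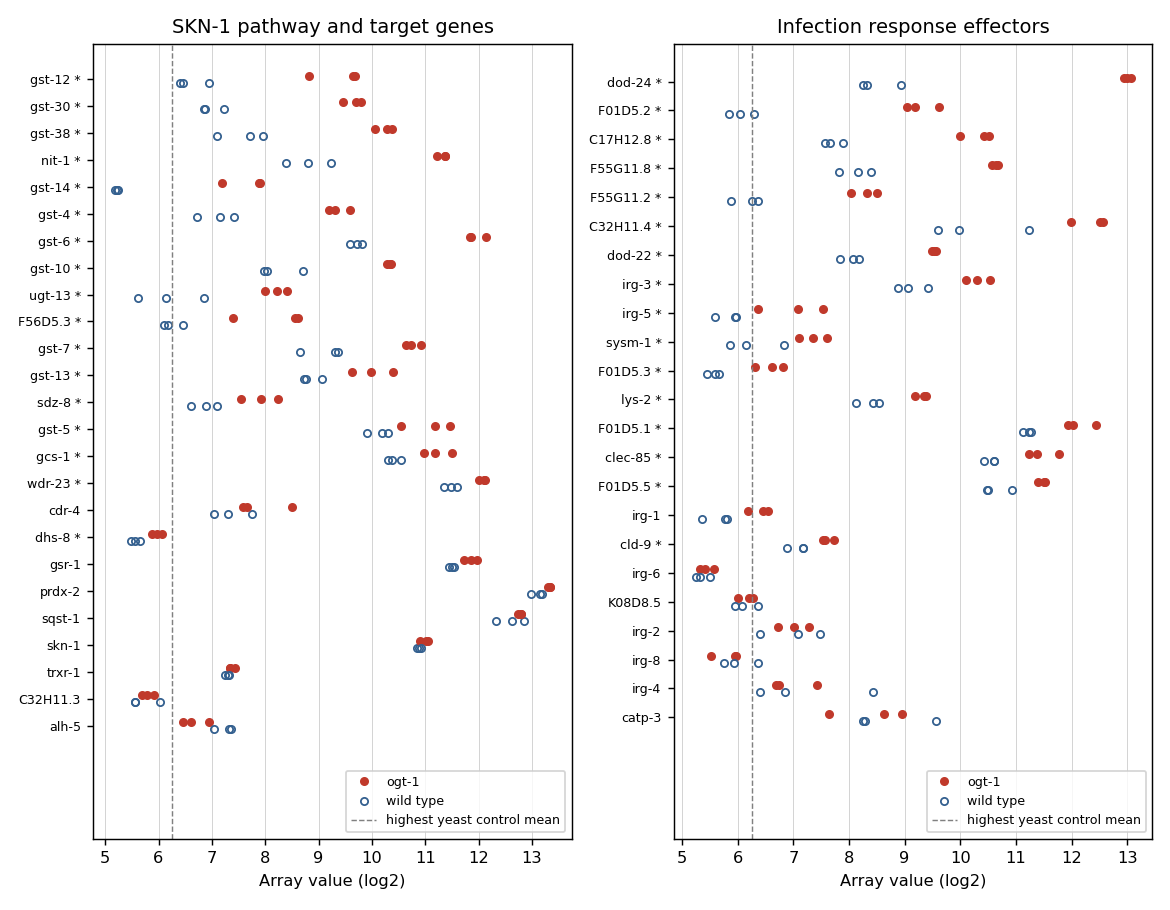
Each dot is 1 array (filled red, ogt-1; open blue, wild type) on the log2 array scale, for the 25 SKN-1 pathway genes (left) and the 23 infection response effectors (right), ordered by difference; asterisks mark called genes and the dashed line is the highest yeast control mean, 6.26. In every starred gene the 3 ogt-1 arrays lie to the right of the 3 wild type arrays.

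Whole families of conjugation and redox genes, which share members with this list, were called in both directions. The glutathione S-transferases named above, ugt-13 and dhs-8 are counted again here, so these shares are not independent of the SKN-1 list. Over all genes 1.94% were called higher and 2.38% lower. Of 45 glutathione S-transferases, 14 rose (31.1%) and 1 fell (2.22%, 0 with ogt-1 replicate 2 or 3 removed), and the 14 included gst-1 (1.16 ± 0.12), gst-20 (1.02 ± 0.10) and gst-16 (2.10 ± 0.17, at least 4.29-fold). Of 29 genes of glutathione synthesis and redox control, 4 rose (13.8%) and 1 fell (3.45%, counting 0 to 2 with ogt-1 replicate 2 or 3 or wild type replicate 1 or 2 or oga-1 replicate 2 removed). The rises included gclm-1, the modifier subunit of glutamate-cysteine ligase (0.62 ± 0.12, adjusted p = 0.0157), and gspd-1, the glucose-6-phosphate dehydrogenase that supplies NADPH (0.64 ± 0.14, adjusted p = 0.0296). The call of gclm-1 was lost with ogt-1 replicate 2 or wild type replicate 2 removed (highest adjusted p 0.0893) and that of gspd-1 with ogt-1 replicate 1, 2 or 3 or wild type replicate 2 or 3 removed (highest adjusted p 0.15), and the rises of this list numbered 1 to 2 with ogt-1 replicate 1, 2 or 3 or wild type replicate 2 or 3 removed. Short-chain dehydrogenases split, with 4 rises (11.4%, counting 2 with ogt-1 replicate 2 or 3 or wild type replicate 2 or 3 or oga-1 replicate 1 removed) and 3 falls (8.57%) among 35: dhs-4 (1.53 ± 0.17, at least 2.88-fold) and dhs-12 (0.99 ± 0.11) rose, whereas dhs-11 (-0.79 ± 0.10) and dhs-19 (-0.71 ± 0.12) fell. Cytochrome P450s, the oxidases of the first detoxification step, gave 5 falls among 74 (6.76%) and 0 rises, with 22 of the 74 above 0, and the falls numbered 2 to 3 with ogt-1 replicate 1, 2 or 3 or wild type replicate 3 removed. Of these, cyp-33C4 fell 2.11-fold and cyp-32B1 1.53-fold. Of 64 UDP-glucuronosyltransferases 2 rose (3.12%, counting 1 with ogt-1 replicate 1 or 2 or wild type replicate 2 or 3 or oga-1 replicate 1 removed) and 4 fell (6.25%, counting 0 to 2 with ogt-1 replicate 1, 2 or 3 or wild type replicate 1 or 3 removed), and ugt-17 fell 2.35-fold, a call that ended with ogt-1 replicate 2 or 3 or wild type replicate 1 or 3 removed (highest adjusted p 0.129). The antioxidant enzyme superoxide dismutase sod-1 rose by 0.71 ± 0.12, and the metallothionein mtl-2, a cysteine-rich metal-binding protein, read 12.24, 12.76 and 12.71 on the ogt-1 arrays, against 11.10, 10.91 and 10.84 on the wild type arrays, a rise of 3.06-fold. For both genes the groups did not overlap. The other metallothionein, mtl-1, differed by 1.14 ± 0.37 and did not pass (adjusted p = 0.12), and the other 12 genes of that list of 15, which also holds catalases, ferritins and cadmium-responsive genes, did not pass either.

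Genes of the hypoxia and hydrogen sulfide response were looked at after their values had been seen, because cysl-2 and rhy-1 were among the 2-fold risers. CYSL-2 is a cysteine synthase-like enzyme, and RHY-1 is a membrane acyltransferase-like protein that restrains the hypoxia factor HIF-1. The gene cysl-2 averaged 10.13 ± 0.21 on the ogt-1 arrays, against 7.95 ± 0.05 on the wild type arrays (SD, n = 3 each), a rise of 4.53-fold (2.18 ± 0.25, adjusted p = 0.000524). The rhy-1 values were 9.79, 10.07 and 9.70 on the ogt-1 arrays, against 7.97, 9.36 and 8.07 on the wild type arrays (1.38 ± 0.29, adjusted p = 0.0215), and the call ended with ogt-1 replicate 1, 2 or 3 or wild type replicate 1 or 3 removed (highest adjusted p 0.104). In both genes the arrays of the strains did not overlap, and rhy-1 varied more than cysl-2 among the wild type arrays. The sulfide quinone oxidoreductase sqrd-1 differed by 0.76 ± 0.19 (adjusted p = 0.0507) and nhr-57, a HIF-1 target, by 0.18 ± 0.13 (adjusted p = 0.555). The other 5 of the 9 genes read, among them vhl-1 (0.33), which marks HIF-1 for degradation, cysl-1 (0.17) and F22B5.4 (-0.58), did not pass. In all, 2 of the 9 rose (22.2%, against 1.94% of all genes), in a list made because these 2 had risen. The rises numbered 1 with ogt-1 replicate 1, 2 or 3 or wild type replicate 3 removed.

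Infection response effectors, genes that rise in worms fed pathogenic bacteria and many of which need the p38 kinase PMK-1, were another group in which most members rose. Of 23 genes read, 16 rose (69.6%, against 1.94% of all genes) and 0 fell, with a median difference of 0.94. This list, too, was chosen with earlier results of these data known, and several of its risers are chromosome neighbours, as given below. Its share is therefore a description and not a test. Predicted secreted proteins with a CUB-like domain led the rises. F55G11.8 read 10.63, 10.56 and 10.68 on the ogt-1 arrays, against 8.17, 7.82 and 8.40 on the wild type arrays (2.50 ± 0.14, adjusted p = 1.99e-06), and C17H12.8 read 10.43, 9.99 and 10.52 on the ogt-1 arrays, against 7.89, 7.67 and 7.56 on the wild type arrays (2.60 ± 0.14, adjusted p = 1.73e-06). The values of C32H11.4 were 11.99, 12.50 and 12.57 on the ogt-1 arrays, against 9.98, 9.60 and 11.24 on the wild type arrays (2.08 ± 0.33, adjusted p = 0.00521). The groups were apart in all of them, but the highest wild type array of C32H11.4 came within 1 log2 unit of its lowest ogt-1 array. Further rises in this class were dod-24 (22.5-fold), F55G11.2 (at least 4.33-fold) and dod-22 (2.82-fold).

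The other effectors that rose were F01D5.2 (at least 9.35-fold), F01D5.3 (at least 2.01-fold), F01D5.5 (1.79-fold), irg-3 (2.28-fold), the lysozyme lys-2 (1.92-fold) and the C-type lectin clec-85 (1.89-fold). The calls of 4 more rises were ended by single arrays. Those were sysm-1 (1.07), lost with ogt-1 replicate 1 or 2 or wild type replicate 2 or 3 removed (highest adjusted p 0.0868), irg-5 (1.16), lost with ogt-1 replicate 1 or 2 or wild type replicate 1, 2 or 3 removed (highest adjusted p 0.0998), F01D5.1 (0.93), lost with ogt-1 replicate 3 removed (highest adjusted p 0.0608), and cld-9 (0.53), lost with ogt-1 replicate 2 or 3 or wild type replicate 2 removed (highest adjusted p 0.135). Members that did not pass included irg-1 (0.74), irg-2 (0.02), irg-4 (-0.28), irg-6 (0.07) and irg-8 (-0.20). The signalling genes upstream were not called. Of 10 genes of the p38 pathway 0 passed, with differences of 0.16 for the adaptor tir-1, 0.06 for the kinase kinase sek-1, 0.42 for pmk-1, -0.01 for the phosphatase vhp-1 and -0.05 for the transcription factor atf-7. The adjusted p of pmk-1 was 0.366, and its values were 9.20, 9.30 and 9.57 on the ogt-1 arrays, against 9.16, 9.12 and 8.52 on the wild type arrays.

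C-type lectins, secreted sugar-binding proteins of which many respond to infection, changed in both directions. Of 220 read, 13 rose (5.91%) and 12 fell (5.45%), against 1.94% and 2.38% of all genes, and the median was -0.03. The family was dim: in 175 of the 220 the lower strain mean was at or under the control level. The largest rises were those of clec-3 (at least 58.7-fold), clec-74 (at least 8.12-fold), clec-143 (7.38-fold), clec-73 (at least 6.77-fold, read by a probe set that may also bind relatives), clec-86 (4.90-fold) and clec-66 (3.58-fold), and clec-76 rose 2.02-fold. For clec-143 the arrays read 9.24, 9.43 and 9.66 on the ogt-1 arrays, against 6.59, 6.32 and 6.77 on the wild type arrays, and for clec-66 they read 11.95, 11.75 and 12.11 on the ogt-1 arrays, against 10.22, 9.73 and 10.34 on the wild type arrays. Both genes were apart on all arrays. Among the falls, clec-37 dropped by 0.77 and clec-49 by 0.67, and these were the only 2 of the 12 whose calls held in all 9 fits with 1 array left out, against 11 of the 13 rises. The falls numbered 3 to 7 with ogt-1 replicate 1, 2 or 3 or wild type replicate 1, 2 or 3 removed.

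Other antimicrobial families held few calls, with opposite signs. Of 16 lysozymes, lys-2 rose, lys-4 fell at least 3.28-fold and 14 lay below 0 (87.5%, against 50.1% of all genes). The lys-4 arrays read 6.24, 6.27 and 6.09 on the ogt-1 arrays, against 8.25, 7.62 and 7.88 on the wild type arrays, with no overlap. The invertebrate-type lysozyme ilys-5 differed by -1.53 ± 0.39 and did not pass (adjusted p = 0.0507). Of 18 saposin-like caenopores, which form pores in bacterial membranes, spp-6 fell 2.16-fold (-1.11 ± 0.13) and 1 other fell (11.1% lower in all, against 2.38%, counting 1 with ogt-1 replicate 1 or 2 or wild type replicate 1, 2 or 3 removed). Of 12 galectins, lec-7 (0.78) and lec-9 (0.81) rose (16.7%, against 1.94% of all genes). The call of lec-7 was lost with ogt-1 replicate 2 or 3 or wild type replicate 1, 2 or 3 removed (highest adjusted p 0.133) and that of lec-9 with ogt-1 replicate 2 or 3 or wild type replicate 2 or 3 removed (highest adjusted p 0.0939). None of the 36 caenacins and fungus-induced peptides rose and 1 fell (2.78%, counting 0 to 4 with ogt-1 replicate 2 or 3 or wild type replicate 2 or 3 or oga-1 replicate 1, 2 or 3 removed). None of 27 SCP-like extracellular proteins rose and 2 fell (7.41%, counting 0 to 1 with ogt-1 replicate 2 or 3 or wild type replicate 1, 2 or 3 removed). Of 23 pals genes, which respond to intracellular pathogens, pals-32 fell 2.19-fold and the other 22 did not pass.

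The mutants shared the wild type arrays as their control, so their changes are given side by side and the difference between them was tested directly. In oga-1 larvae 1 of the 25 SKN-1 pathway genes rose (0 with oga-1 replicate 1 or 2 or wild type replicate 2 removed) and the median difference from wild type was -0.13. Of the 23 infection response effectors 8 rose in oga-1 larvae (4 with oga-1 replicate 1 removed, 5 with wild type replicate 2 removed, 10 with replicate number as a block), with a median difference from wild type of 0.45. The direct comparison called 16 of the 25, all 16 higher in ogt-1, against 0.532% of all genes (91 genes, counting 158 with oga-1 replicate 3 removed and 58 to 60 with ogt-1 replicate 2 or 3 or oga-1 replicate 1 removed). For gst-4 the difference from wild type was 2.27 in ogt-1 and -0.39 in oga-1 (adjusted p = 4.11e-06 between the mutants). For nit-1 it was 2.52 in ogt-1 and 0.15 in oga-1 (adjusted p = 2.42e-05), and for gst-38 it was 2.65 in ogt-1 and 1.15 in oga-1 (adjusted p = 0.00572). Of the 23 infection response effectors 8 differed between the mutants, and not all in one direction. F55G11.2 (2.12 in ogt-1, 0.20 in oga-1, adjusted p = 2.79e-05) was higher in ogt-1, whereas sysm-1 (1.07 in ogt-1, 2.61 in oga-1, adjusted p = 0.00599) and C17H12.8 (2.60 in ogt-1, 3.35 in oga-1, adjusted p = 0.048) were lower in ogt-1 than in oga-1. The call of C17H12.8 between the mutants ended with ogt-1 replicate 1, 2 or 3 or wild type replicate 2 or 3 or oga-1 replicate 1, 2 or 3 removed (highest adjusted p 0.253). The call of sysm-1 against wild type was lost with ogt-1 replicate 1 or 2 or wild type replicate 2 or 3 removed (highest adjusted p 0.0868).

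Outside those lists the direct comparison also separated further genes. The alpha-glucosidase aagr-1 fell in ogt-1 larvae (-1.47, against -0.53 in oga-1, adjusted p = 0.0286 between the mutants), as did the cathepsin B-like protease cpr-5 (-1.27, against -0.24, adjusted p = 0.0167). The aspartyl protease asp-14 (1.85, against 0.18, adjusted p = 8.56e-06) and the fasting-induced lipase fil-1 (1.05, against -0.02, adjusted p = 0.0112) were higher in ogt-1. Between the mutants the call of aagr-1 ended with ogt-1 replicate 2 or 3 or wild type replicate 2 or oga-1 replicate 1 or 3 removed (highest adjusted p 0.182), that of cpr-5 with ogt-1 replicate 2 or 3 or oga-1 replicate 1 removed (highest adjusted p 0.111) and that of fil-1 with oga-1 replicate 1 or 2 removed (highest adjusted p 0.0663). By contrast, 2 of the 1276 chemoreceptors, 0 of the 42 genes of the fatty acid list and 0 of the 86 neuropeptides were called between the mutants. This does not show that they were alike. Against the same wild type arrays, the median difference in oga-1 larvae was 0.03 for chemoreceptors, -0.13 for the fatty acid list and -0.15 for neuropeptides. For lists described below it was -0.15 for neuropeptide receptors, -0.13 for innexins, -0.13 for glutamate receptors and transporters and -0.20 for peroxisome biogenesis. It was 0.02 for proteasome subunits and 0.07 for small GTPases and vesicle traffic.

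**Figure D3:**
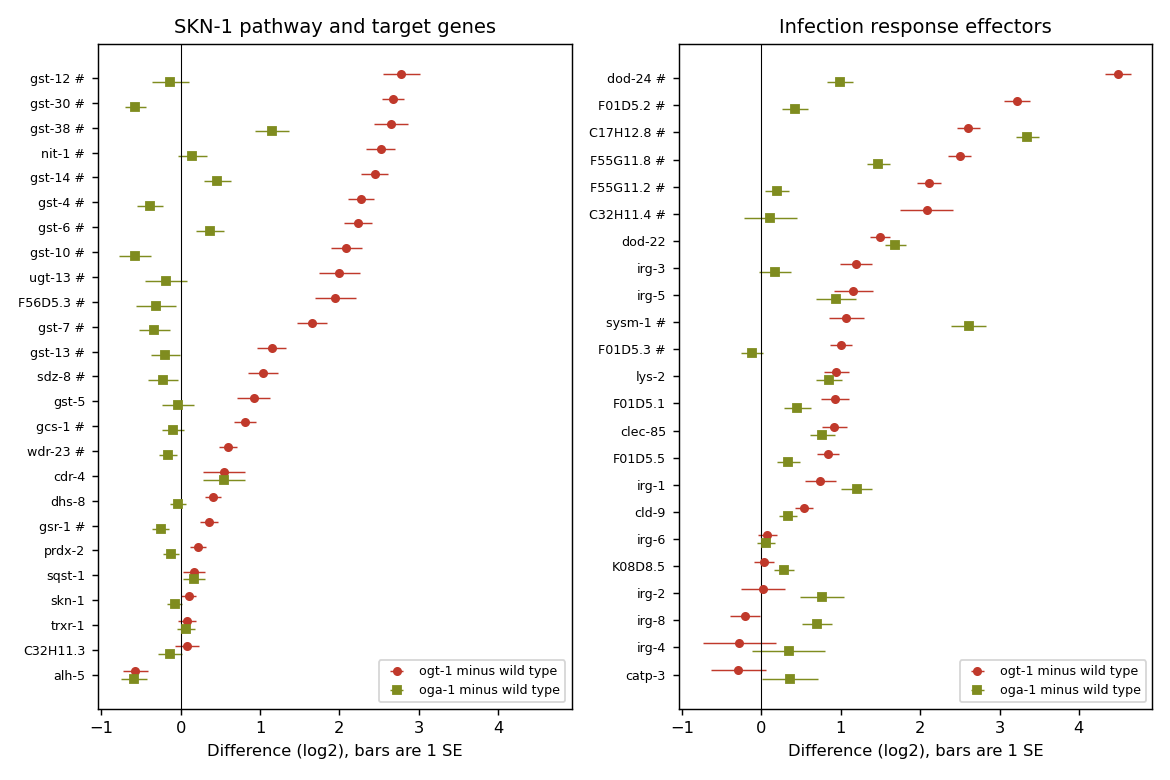
Differences from wild type on the log2 scale, with bars of 1 SE, in ogt-1 (red circles, drawn above) and oga-1 (green squares) for the 25 SKN-1 pathway genes (left) and the 23 infection response effectors (right); both are measured against the same 3 wild type arrays. A hash marks genes called between the mutants, 16 in the left panel and 8 in the right.

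Several changed genes were neighbours on their chromosomes. Ordered by the RefSeq annotation of assembly WBcel235, 49 runs of 2 or more adjacent genes read were called in the same direction, 29 higher and 20 lower, and 6 of them held 3 or more genes. The runs held 63 of the 332 genes called higher (19%) and 43 of the 407 called lower (10.6%), where 1.94% and 2.38% of all genes were called. Some runs arise in any gene order. How many a random order would give was not computed, so the counts do not show that changed genes cluster. On chromosome II the adjacent genes F01D5.1, F01D5.2, F01D5.3 and F01D5.5 rose by 0.84 to 3.23, and none of the 4 genes read on either side was called. The call of F01D5.1 was lost with ogt-1 replicate 3 removed (highest adjusted p 0.0608). On chromosome IV F55G11.7 (2.06 ± 0.13), F55G11.8, dod-22 and F55G11.2 rose by 1.49 to 2.50. Here dod-17 (1.94), the third gene read beyond them, was also called. The glutathione S-transferases gst-14, gst-12 and gst-16 on chromosome II rose by 2.10 to 2.78 while gst-15, next to them, differed by 0.54 ± 0.32 and did not pass (adjusted p = 0.467). Their neighbours gst-17 (-0.08), gst-18 (-0.02) and gst-19 (-0.24) on the other side did not pass either.

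Runs that fell included cyp-33C4, cyp-33C3 and cyp-33C5 on chromosome V, by -1.08 to -0.57, next to cyp-33C6 (0.00) and cyp-33C7 (0.08), which did not pass. The call of cyp-33C3 was lost with ogt-1 replicate 1, 2 or 3 or wild type replicate 3 removed (highest adjusted p 0.136) and that of cyp-33C5 with ogt-1 replicate 1 or 2 or wild type replicate 3 removed (highest adjusted p 0.0868). Sequence-related neighbours can share probes: cyp-33C4, cyp-33C5 and gst-16 were read by probe sets that may also bind relatives, and the part of that in the values was not tested. Over the 6 nuclear chromosomes, the share called higher ran from 1.48% on V to 2.44% on IV, and the share called lower from 1.58% on I to 2.78% on IV.

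**Figure D4:**
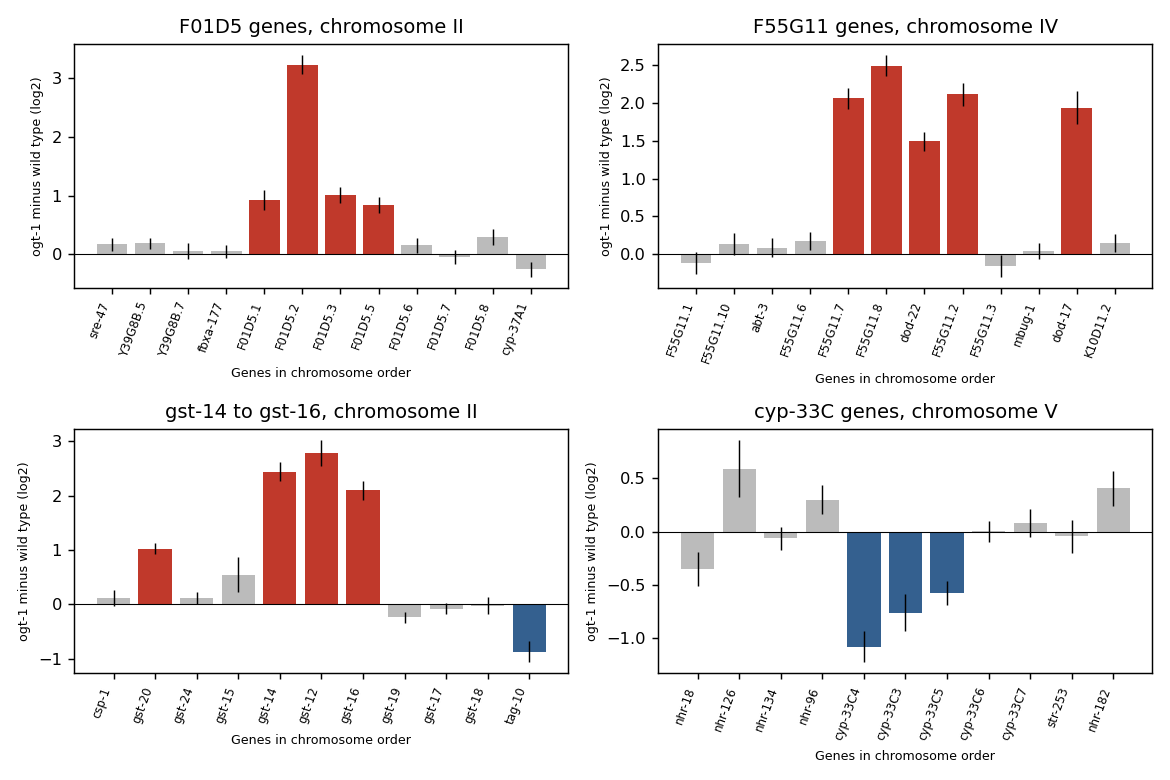
Bars give the ogt-1 minus wild type difference (log2, error bars 1 SE) of genes in chromosome order around 4 runs of called neighbours; red marks genes called higher, blue genes called lower and grey genes that did not pass. In the F01D5 panel 4 adjacent red bars stand between genes near 0, and in the cyp-33C panel 3 blue bars border on cyp-33C6 at 0.00.

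Chemoreceptors, the large superfamily of G protein-coupled receptors that sense odours and tastes, gave 32 of the falls. Of 1276 read, 32 fell (2.51%, against 2.38% of all genes) and 4 rose (0.313%, against 1.94%), and the median difference was -0.005. In 1079 of them the dimmer strain mean was at or under the control level, so the family was read mostly near background. Among the larger falls, the receptor gene srv-11 read 6.68, 6.60 and 6.39 on the ogt-1 arrays, against 7.92, 7.88 and 7.54 on the wild type arrays (-1.22 ± 0.13, adjusted p = 0.000218), and sru-1 read 6.53, 6.40 and 6.32 on the ogt-1 arrays, against 7.79, 7.40 and 7.65 on the wild type arrays (-1.19 ± 0.12, adjusted p = 0.000212). The values of srsx-34 were 7.07, 7.12 and 7.09 on the ogt-1 arrays, against 7.90, 8.05 and 8.62 on the wild type arrays (-1.10 ± 0.18, adjusted p = 0.00575). None of these receptors showed overlap between the strains. Further falls were str-112 (at least 2.36-fold), srj-14 (2.07-fold), srg-47 (at least 2.02-fold) and srh-46 (1.91-fold). The receptor for diacetyl, odr-10, named here after its value was seen, fell by 0.69 (adjusted p = 0.00261). The falls numbered 12 to 18 with ogt-1 replicate 2 or 3 or wild type replicate 3 removed, and the rises 2 with ogt-1 replicate 3 removed. Receptors that rose included srx-68 (at least 2.86-fold) and srt-47 (2.09-fold).

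Some lists of signalling between neurons lay slightly lower, with few single calls. Of 86 neuropeptide genes of the flp and nlp families, 74 lay below 0 (86%, against 50.1% of all genes). In this list 5 fell (5.81%, against 2.38%) and 0 rose (against 1.94%), with a median difference of -0.14 (all genes: -0.001). The 5 were nlp-60 (-0.85), nlp-81 (-0.74), flp-8 (-0.60), nlp-33 (-0.58) and nlp-2 (-0.55), and each call was ended by leaving out single arrays. That of nlp-60 was lost with ogt-1 replicate 2 or 3 removed (highest adjusted p 0.079), that of nlp-81 with ogt-1 replicate 2 or 3 or wild type replicate 3 removed (highest adjusted p 0.0867), that of flp-8 with ogt-1 replicate 2 or 3 or wild type replicate 1 or 2 removed (highest adjusted p 0.0886), that of nlp-33 with ogt-1 replicate 1, 2 or 3 or wild type replicate 2 or oga-1 replicate 1 removed (highest adjusted p 0.162) and that of nlp-2 with ogt-1 replicate 1 or 2 or wild type replicate 1, 2 or 3 or oga-1 replicate 1 removed (highest adjusted p 0.185). The falls of the list numbered 0 to 3 with ogt-1 replicate 2 or 3 or wild type replicate 1 or 2 or oga-1 replicate 1 removed. Array by array, the median deviation of the 86 genes from their own means was -0.08, -0.13 and -0.04 on the ogt-1 arrays, against 0.04, 0.10 and 0.11 on the wild type arrays, with no overlap. Of 25 innexins, which form gap junctions, 22 lay below 0 and 0 were called (median -0.14, or -0.21 without wild type replicate 2). Neuropeptide receptors (73 of 108 below 0, 0 called) had a median of -0.07 (-0.12 without wild type replicate 2), and glutamate receptors and transporters (20 of 25 below 0) one of -0.19. The arrays overlapped in the glutamate list, with a median deviation of 0.0178 on ogt-1 replicate 1 and 0.0176 on wild type replicate 2. Only glr-6 passed in the glutamate list, and it rose (0.70, a call that ended with ogt-1 replicate 2 or 3 or wild type replicate 2 or 3 removed (highest adjusted p 0.0967)). Other lists lay nearer to 0 with overlapping arrays: synaptic release and neurotransmitter synthesis (19 of 48 above 0, median -0.04), potassium channels (30 of 69, -0.05), G proteins and their regulators (24 of 58, -0.04) and intraflagellar transport and cilia (31 of 55, 0.05). The 10 neuronal markers of the tissue check had a median difference of -0.05, and 0 of them were called.

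Several housekeeping lists lay slightly above 0, and others did not. Among all genes read 49.9% lay above 0, 1.94% were called higher and 2.38% lower. Of 31 proteasome subunits 28 lay above 0 (90.3%, median 0.24), with 2 rises (6.45%, and 0 with ogt-1 replicate 1, 2 or 3 or wild type replicate 2 or 3 removed). Of 118 genes of small GTPases and vesicle traffic 97 lay above 0 (median 0.18) and 1 was called, the SNARE gene syx-18 (0.60), a call that ended with ogt-1 replicate 2 or 3 or wild type replicate 2 or 3 removed (highest adjusted p 0.136). Translation factors and tRNA synthetases (55 of 71 above 0, median 0.12) held 4 rises (5.63%) and 0 falls. The rises numbered 0 to 1 with ogt-1 replicate 1, 2 or 3 or wild type replicate 2 or 3 removed. The largest was that of rars-2, an arginyl-tRNA synthetase (0.97 ± 0.21, a call that ended with ogt-1 replicate 1, 2 or 3 or wild type replicate 2 or 3 removed (highest adjusted p 0.104)). Mitochondrial ribosomal proteins (46 of 58 above 0, median 0.10), autophagy genes (23 of 28, median 0.09) and genes of the unfolded protein response of the endoplasmic reticulum (23 of 26, median 0.15) lay above 0 as well. The first pair of lists held 0 calls, and the last held 2 rises (7.69%), counting 0 to 1 with ogt-1 replicate 1, 2 or 3 or wild type replicate 1, 2 or 3 or oga-1 replicate 1 removed. Cytosolic ribosomal proteins (51 of 76 above 0, median 0.02) and the lysosomal V-ATPase (10 of 19, 0.03) lay near 0 with 0 calls, and of 16 peroxisome biogenesis genes 13 lay below 0 (median -0.14). On the arrays, the proteasome medians were 0.02, 0.13 and 0.12 on ogt-1, against -0.08, -0.11 and -0.12 on wild type. Those of ogt-1 replicate 1 lay closest to wild type. Array medians of the mitochondrial ribosome overlapped, at -0.05 on ogt-1 replicate 1, against -0.01, -0.11 and -0.04 on wild type. Those of peroxisome biogenesis overlapped too, at -0.05 on ogt-1 replicate 2 and -0.06 on wild type replicate 2. The median difference of the brightest of 4 equal classes of genes was 0.05, and the part of level in these shifts was not tested. With quantile-normalised values the medians were 0.19 for the proteasome, 0.14 for vesicle traffic and -0.18 for neuropeptides.

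**Figure D5:**
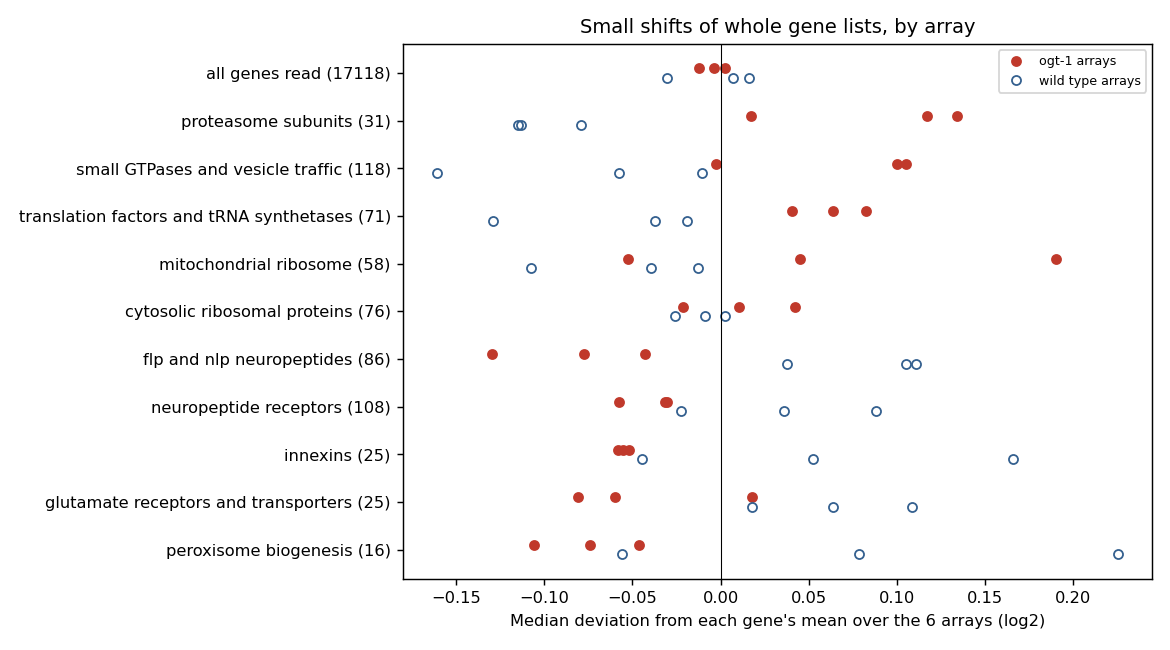
For each list, dots give the median over its genes of the deviation from each gene's mean over the 6 arrays (log2), 1 dot per array (filled red, ogt-1; open blue, wild type), with the number of genes in brackets. All genes together overlap around 0, proteasome subunits lie higher and neuropeptides lower on all 3 ogt-1 arrays, and cytosolic ribosomal proteins overlap.

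Sugar storage genes changed in opposite directions by enzyme. Starved larvae hold glycogen and trehalose, a disaccharide that trehalases split into glucose. Of 21 genes read, 3 rose (14.3%, against 1.94% of all genes) and 1 fell (4.76%, against 2.38%), and 17 lay above 0 (81%, against 49.9%). The trehalase tre-2 read 11.10, 10.65 and 10.48 on the ogt-1 arrays, against 8.99, 8.74 and 9.66 on the wild type arrays, a rise of 3.05-fold (1.61 ± 0.30, adjusted p = 0.0119). The acid alpha-glucosidases, related to the enzyme that releases glucose from glycogen in lysosomes, moved apart: aagr-2 rose by 0.91 ± 0.11, and aagr-1 read 8.72, 8.14 and 8.15 on the ogt-1 arrays, against 9.83, 9.81 and 9.77 on the wild type arrays, a fall of 2.76-fold (adjusted p = 0.000478). For each of these genes the arrays of the strains did not overlap. In glycolysis and gluconeogenesis, phosphoenolpyruvate carboxykinase pck-1 (0.68) and the aldolase aldo-1 (0.50) rose among 24 genes (8.33%, against 1.94% of all genes) and 0 fell. The call of pck-1 was lost with ogt-1 replicate 2 or 3 or wild type replicate 2 or 3 removed (highest adjusted p 0.114) and that of aldo-1 with ogt-1 replicate 2 or 3 or wild type replicate 2 or 3 removed (highest adjusted p 0.117). No gene of the hexosamine pathway passed: of 14 genes with the O-GlcNAc enzymes included, gfat-1 differed by 0.28, gfat-2 by -0.18, gna-1 by 0.31, gna-2 by -0.07 and oga-1 by 0.07.

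Lipid genes fell more often than they rose. A list of 42 genes covered fatty acid synthesis, desaturation and elongation, and also held acyltransferases. Of these 42 genes 6 fell (14.3%, against 2.38% of all genes) and 0 rose. The falls numbered 2 to 3 with ogt-1 replicate 1, 2 or 3 or wild type replicate 3 removed. The acyltransferases acl-13 (-0.96 ± 0.14) and acl-2 (-0.61 ± 0.10), which attach fatty acids to glycerophospholipids, were the only 2 whose calls held in all 9 fits. No call of a desaturase or elongase held in all 9. Of 28 lipases 4 fell (14.3%, against 2.38% of all genes, counting 1 to 2 with ogt-1 replicate 2 or 3 or wild type replicate 3 removed) and 1 rose (3.57%, against 1.94%). The lipase gene lips-15 fell 3.63-fold. The fasting-induced lipase fil-1 read 10.93, 10.49 and 10.38 on the ogt-1 arrays, against 9.52, 9.41 and 9.71 on the wild type arrays, a rise of 2.07-fold (adjusted p = 0.00492). The groups of fil-1 did not overlap. The enoyl-CoA hydratase ech-7, of the beta-oxidation list (3 of 65 lower, 4.62%, against 2.38% of all genes, counting 1 with ogt-1 replicate 2 or 3 or wild type replicate 2 or 3 or oga-1 replicate 1 removed), fell 2.09-fold, and the fatty acid- and retinol-binding protein far-7 fell by 0.93. The cardiolipin synthase crls-1 rose by 0.63 ± 0.10, alone among 36 sphingolipid and phospholipid enzymes.

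Transporters and polyamine synthesis held some of the larger changes outside defence. Of 184 solute carriers 11 fell (5.98%, against 2.38% of all genes) and 4 rose (2.17%, against 1.94%). The falls numbered 3 to 7 with ogt-1 replicate 2 or 3 or wild type replicate 1 removed, and the rises 7 with wild type replicate 3 removed. The gene slc-36.4, whose SLC36 relatives carry amino acids across membranes, read 10.06, 10.14 and 9.93 on the ogt-1 arrays, against 7.90, 7.48 and 8.36 on the wild type arrays and rose 4.38-fold (adjusted p = 4.3e-05). Its relative slc-36.5 read 7.94, 7.44 and 7.40 on the ogt-1 arrays, against 8.46, 8.61 and 9.38 on the wild type arrays and fell 2.33-fold (adjusted p = 0.0145), a call that ended with ogt-1 replicate 2 or 3 removed (highest adjusted p 0.079). The ornithine decarboxylase odc-1, which makes the polyamine putrescine, rose 2.70-fold (1.43 ± 0.14), while the spermidine synthase spds-1 (-0.18) and the S-adenosylmethionine decarboxylase smd-1 (-0.09) did not pass. Of the aquaporin channels, aqp-3 rose at least 2.25-fold and aqp-8 fell 2.22-fold. The SLC17 family gene slc-17.5 rose 2.58-fold. Its relative slc-17.3 fell at least 2.39-fold, a call that ended with ogt-1 replicate 3 removed (highest adjusted p 0.0511). The dicarboxylate transporter nac-1 fell 1.82-fold and the betaine transporter snf-3 fell 1.77-fold.

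Single genes of mitochondrial protein quality control and of small RNA pathways fell. In the list of 30 mitochondrial unfolded protein response and import genes 3 fell (10%, against 2.38% of all genes) and 0 rose, and the list's median was 0.02. The matrix protease clpp-1 read 8.30, 8.47 and 8.83 on the ogt-1 arrays, against 9.57, 10.10 and 9.27 on the wild type arrays, a fall of 2.16-fold (adjusted p = 0.00869). The peptide exporter haf-1, which works downstream of CLPP-1 in that response, read 5.51, 5.35 and 5.30 on the ogt-1 arrays, against 6.23, 5.90 and 6.16 on the wild type arrays, a fall with both means under the control level, and the inner membrane translocase subunit tin-10 fell by 0.67. In clpp-1 and haf-1 every ogt-1 array lay below every wild type array. Of 56 Argonaute and small RNA genes, prg-1, the PIWI protein that binds piRNAs, fell 2.16-fold and sago-1, an Argonaute that binds secondary small interfering RNAs, fell 2.05-fold, and 0 rose. That share of 3.57% is near the 2.38% of all genes, and 28 of the 56 lay above 0. The prg-1 arrays read 8.44, 8.73 and 8.33 on the ogt-1 arrays, against 9.60, 9.63 and 9.61 on the wild type arrays, and the sago-1 arrays 6.83, 7.19 and 6.96 on the ogt-1 arrays, against 7.83, 8.36 and 7.89 on the wild type arrays. Both were free of overlap. Of 36 histone genes 3 fell (8.33%, against 2.38% of all genes) and 0 rose, on probe sets that can bind several histone transcripts, and these falls numbered 0 with ogt-1 replicate 2 or 3 removed. In the list of 44 chromatin remodelling and synMuv genes 3 rose (6.82%, against 1.94% of all genes) and 0 fell. The 3 were lin-15A (0.47) and lin-15B (0.66), which share an operon, and sdc-3 (0.48). The call of lin-15A was lost with ogt-1 replicate 2 or 3 or wild type replicate 1, 2 or 3 or oga-1 replicate 1 removed (highest adjusted p 0.196), that of lin-15B with ogt-1 replicate 1, 2 or 3 or wild type replicate 2 removed (highest adjusted p 0.104) and that of sdc-3 with ogt-1 replicate 1 or 2 or wild type replicate 2 or 3 or oga-1 replicate 1 removed (highest adjusted p 0.159).

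Proteases, chaperones and ubiquitin ligase adaptors changed in small numbers. The aspartyl proteases asp-14 (13.55, 13.63 and 13.57 on the ogt-1 arrays, against 11.83, 11.78 and 11.59 on the wild type arrays, 3.60-fold higher) and asp-7 (2.34-fold higher) rose, and the cathepsin B-like cpr-5 read 8.05, 7.60 and 7.50 on the ogt-1 arrays, against 9.19, 8.73 and 9.02 on the wild type arrays, a fall of 2.40-fold. All 3 are digestive or lysosomal proteases by family, and none had overlapping arrays. Of 104 proteins with MATH or BTB domains, which recruit substrates to cullin ubiquitin ligases, 6 fell (5.77%, against 2.38% of all genes, counting 3 to 11 with ogt-1 replicate 2 or 3 or wild type replicate 3 or oga-1 replicate 2 removed) and 0 rose. Of these, math-47 (-0.92), math-3 (-0.88) and bath-47 (-0.68) held in all 9 fits. F-box proteins, another class of such adaptors, gave 5 falls (counting 1 to 3 with ogt-1 replicate 2 or 3 or wild type replicate 1 or 2 removed) (1.61%, against 2.38% of all genes) and 2 rises (0.645%, against 1.94%, counting 0 to 1 with ogt-1 replicate 1, 2 or 3 or wild type replicate 1, 2 or 3 or oga-1 replicate 1 removed) among 310, and fbxa-14 fell by 0.91. Of 12 small heat shock proteins, 3 rose (25%, against 1.94% of all genes, counting 1 with ogt-1 replicate 2 or 3 removed) and 1 fell (8.33%, against 2.38%). The highest riser, hsp-12.3, averaged 10.81 ± 0.64 on the ogt-1 arrays, against 8.98 ± 0.10 on the wild type arrays (SD, n = 3 each, 3.57-fold higher). A difference of 1.53 ± 0.36 was measured for hsp-12.6 and one of 1.28 ± 0.28 for hsp-16.2, and sip-1 fell 1.70-fold. The call of hsp-12.6 ended with ogt-1 replicate 1, 2 or 3 or oga-1 replicate 1 removed (highest adjusted p 0.143) and that of hsp-16.2 with ogt-1 replicate 2 or 3 or wild type replicate 1 or 3 removed (highest adjusted p 0.134). In oga-1 larvae the differences from wild type were 1.60 for hsp-12.3, 1.28 for hsp-12.6 and 1.26 for hsp-16.2.

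Transcription factors and signalling pathways gave few calls. Of 260 nuclear hormone receptors 7 fell (2.69%, against 2.38% of all genes, counting 2 to 3 with ogt-1 replicate 2 or 3 or wild type replicate 1 or 3 or oga-1 replicate 1 removed) and 2 rose (0.769%, against 1.94%, counting 0 to 4 with ogt-1 replicate 1, 2 or 3 or wild type replicate 2 or 3 or oga-1 replicate 2 removed). The call of nhr-161 (-0.77) held in all 9 fits. The largest receptor fall was that of nhr-43, which averaged 6.40 ± 0.18 on the ogt-1 arrays, against 7.81 ± 0.65 on the wild type arrays (SD, n = 3 each), and fell 2.65-fold, a call that ended with ogt-1 replicate 3 removed (highest adjusted p 0.0662). No gene of the Wnt pathway (28 read), of the insulin-like peptides (24), of the bZIP factors (28), of the GATA, forkhead, T-box and SOX factors (48) or of the L1 arrest regulators (21) was called. The Dachshund homologue dach-1 read 7.04, 6.88 and 7.05 on the ogt-1 arrays, against 8.93, 8.74 and 9.09 on the wild type arrays, a fall of 3.82-fold (adjusted p = 4.55e-05). In the insulin receptor pathway, of 27 genes, 2 rose (7.41%, against 1.94% of all genes) and 2 fell (7.41%, against 2.38%). The rises numbered 1 with ogt-1 replicate 2 or 3 or wild type replicate 2 or 3 removed. The falls numbered 1 with ogt-1 replicate 2 or 3 or wild type replicate 1 or 2 removed. The adaptor shc-1, which binds the insulin receptor DAF-2, read 8.22, 8.08 and 7.89 on the ogt-1 arrays, against 7.02, 6.75 and 6.56 on the wild type arrays and rose 2.44-fold (adjusted p = 0.00432). The gene eak-4, which favours reproductive growth together with the kinase AKT-1, read 7.83, 7.84 and 7.98 on the ogt-1 arrays, against 8.47, 8.50 and 8.54 on the wild type arrays and fell 1.54-fold (adjusted p = 0.00489). In dach-1, shc-1 and eak-4 alike the strains did not overlap. The Smad protein sma-2, which carries the TGF-beta signal that sets body size, fell 1.78-fold, and aph-1, a subunit of the gamma-secretase that cleaves Notch, rose 1.77-fold.

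Structural genes showed isolated changes. Of 147 cuticle collagens, col-142 rose 2.37-fold and col-181 fell 1.74-fold, with 2 rises (1.36%, counting 1 to 4 with ogt-1 replicate 1, 2 or 3 or wild type replicate 1 or 2 removed) and 3 falls (2.04%, counting 1 with ogt-1 replicate 1 or 2 or wild type replicate 1 or 2 removed) in all, against 1.94% and 2.38% of all genes. The cuticlin-like cutl-20 rose 2.15-fold, and mlt-7, a peroxidase that cross-links the new cuticle at the moult, fell 1.93-fold. Of 40 transthyretin-like proteins 4 fell (10%, against 2.38% of all genes, counting 1 to 7 with ogt-1 replicate 1, 2 or 3 or wild type replicate 1, 2 or 3 or oga-1 replicate 1 or 3 removed) and 0 rose. In this list 27 lay below 0 (67.5%, against 50.1% of all genes, median -0.14), and the call of ttr-46 (-0.66) held in all 9 fits. The hedgehog-related genes grd-10 (at least 3.91-fold lower) and grd-3 (at least 1.68-fold lower), adjacent on chromosome IV, fell. The astacin metalloprotease nas-24 fell 2.38-fold. In muscle, the myosin heavy chain unc-54 read 13.27, 13.19 and 13.23 on the ogt-1 arrays, against 12.70, 12.13 and 12.57 on the wild type arrays (0.76 ± 0.14, adjusted p = 0.00939). In all, 4 of 51 sarcomere genes rose (7.84%, against 1.94% of all genes, counting 1 to 2 with ogt-1 replicate 2 or 3 or wild type replicate 2 or 3 or oga-1 replicate 1 removed) and 0 fell. The alpha-tubulin tba-4 rose by 0.83 ± 0.11, alone among 16 tubulins.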

How the data were processed

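RNA of starved L1 larvae was measured on Affymetrix C. elegans arrays, 1 array per culture. Per the labels' protocols, total RNA was extracted with Trizol and biotin-labelled cRNA was prepared from 4 ug of RNA. The authors deposited log2 probe set values normalised across arrays; MAS5, RMA and Partek are listed in the submitters' processing notes, with no role given. Arrays carry no count depth, and their number limits the precision.

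No value of the 77 control probe sets entered the test, and no filter, offset or further normalisation was applied. Symbols were taken from GEO's platform annotation, and 20701 probe sets had theirs in the RefSeq gene list (assembly WBcel235). The test was limma's moderated one (version 3.58.1, R 4.3.3), fitted to all 9 arrays with 1 mean for each strain, which left 6 residual and 5.65 prior degrees of freedom. Calls were made where the p adjusted by Benjamini-Hochberg over the 22548 probe sets was under 0.05. On simulated data with 200 probe sets changed 2-fold, 88.5% were recovered and 3.28% of calls were false. Noise was drawn independently for each probe set, and a 2-fold change exceeds the median called change of 0.64. These shares check the code and do not describe the calls made here.

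The 108 gene lists were chosen with earlier results of these data known, 2 of them (hypoxia and hydrogen sulfide response, pals genes) after their values were seen, and lists overlap. They are described by counts and medians, with no test of a list. The naming rule covers ogt-1 and oga-1, called genes that changed at least 2-fold, up to 8 called members per list and direction, members of lists of 16 or fewer genes and tissue markers. Called 2-fold genes without overlap are all named, and of the others a selection made with their values known. Alternatives were quantile normalisation, arrays centred on their medians, tests without the dimmest 25% or 50% of probe sets, a block for replicate number, robust fitting with a variance trend, a fit on 2 strains only, a 2-fold threshold, averaging the probe sets of each gene and leaving out each array. Same-numbered ogt-1 and wild type arrays did not deviate together (correlations of -0.096 to -0.002), so the numbers were not taken as pairs in this comparison. Same-numbered oga-1 and wild type arrays did (0.357 to 0.481), and ogt-1 and oga-1 arrays correlated at 0.072 to 0.113. Cultures are labelled as biological replicates. Promoter and protein sequences were not analysed here.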

Additional observations from a re-analysis of the deposited data

How the results depend on the processing

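The 882 calls over all probe sets numbered 332 to 1186 with 1 array left out, the fewest without ogt-1 replicate 2; higher calls ranged over 148 to 555 and lower calls over 184 to 631. At a 2-fold threshold the counts were 169, 97 higher and 72 lower. With 1 array left out, rises of infection response effectors numbered 13 to 17, of SKN-1 pathway genes 13 to 17 and of C-type lectins 12 to 14, and falls numbered 3 to 16 for C-type lectins, 12 to 38 for chemoreceptors, 0 to 7 for neuropeptides and 3 to 16 for solute carriers. The 2-fold threshold left 7 of 13 C-type lectin rises, 0 of 12 C-type lectin falls, 6 of 32 chemoreceptor falls, 0 of 5 neuropeptide falls and 3 of 11 solute carrier falls. Leaving out the dimmest 50% of probe sets, with fewer genes tested, left 6 C-type lectin and 12 chemoreceptor falls, and median centring left 3 neuropeptide falls. With replicate number as a block 1171 probe sets were called, and this block ended no call of a gene named. Between ogt-1 and oga-1 larvae 91 genes were called, and 141 with the block, which left the 16 SKN-1 pathway calls at 16, put the 8 infection response calls at 9, and added 2 falls of SKN-1 pathway genes in oga-1 against wild type. Of the 200 called genes named in the text, 196 kept their call with median centring, 191 with quantile normalisation, 191 with a variance trend and robust fitting and 194 on 2 strains only. With the probe sets of each gene averaged 198 kept their call, and without the dimmest 50% all 164 still tested did. None reversed its sign under these settings or with 1 array left out. The causes were not tested. Values near the control level, 152 of the 739 called genes in the dimmer strain, give bounds only.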

Other observations

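Of the 739 called genes, 434 (199 higher, 235 lower) stood in none of the gene lists. Among those that rose by at least 2-fold, several also differed between ogt-1 and oga-1 larvae. The gene osgn-1, a homologue of a human oxidative stress-induced growth inhibitor, read 10.25, 10.66 and 10.59 on the ogt-1 arrays, against 9.15, 8.99 and 9.52 on the wild type arrays, a rise of 2.44-fold (1.28 ± 0.15, adjusted p = 0.00058), against a difference of -0.33 in oga-1 (adjusted p = 0.000127 between the mutants). The mucin-like gene mul-1 read 10.05, 10.18 and 10.48 on the ogt-1 arrays, against 8.65, 8.38 and 8.70 on the wild type arrays (1.66 ± 0.14, adjusted p = 4.79e-05), against 0.25 in oga-1 (adjusted p = 0.000286). In both genes the ogt-1 arrays stood above the wild type arrays with no overlap. Other risers of this kind were T19D12.3 (at least 3.93-fold), Y105C5B.15 (at least 3.80-fold), H20E11.3 (at least 3.70-fold), Y42G9A.3 (3.23-fold), taap-1 (3.04-fold), F56A4.10 (at least 3.04-fold) and W06H8.2 (at least 2.76-fold). The difference between the mutants in Y42G9A.3 was not called with ogt-1 replicate 3 removed (highest adjusted p 0.0512), nor that in taap-1 with ogt-1 replicate 1, 2 or 3 or wild type replicate 1 or 2 or oga-1 replicate 1 or 2 removed (highest adjusted p 0.222). F56A4.10 lies next to gst-10 on chromosome V. F18E3.11 rose 3.94-fold, pcp-2, of a family of prolyl carboxypeptidases, at least 2.45-fold, and agns-1 2.36-fold. Other rises of at least 2-fold whose calls held in all 9 fits were R04B5.6 (at least 2.64-fold), F39B2.3 (at least 2.61-fold), K11H12.3 (2.52-fold), F35E12.6 (2.39-fold), M05D6.5 (2.20-fold) and F44E2.6 (2.08-fold).

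Falls outside the lists were led by T02B11.4 (6.53, 6.83 and 6.83 on the ogt-1 arrays, against 9.31, 9.40 and 9.51 on the wild type arrays, 6.38-fold lower) and tag-293 (4.56-fold lower). The strains did not overlap in T02B11.4. The HMG-box gene hmg-20 fell at least 2.94-fold, the long non-coding RNA gene lep-5, known for timing the male tail, at least 2.40-fold, the phosphodiesterase family gene enpp-1 2.19-fold and the carboxylesterase gene cest-13 2.08-fold. F55H12.4 fell 3.20-fold, F14D2.19 3.00-fold, ZC395.4 at least 3.25-fold and C15A11.7 2.90-fold. Other falls of at least 2-fold whose calls held in all 9 fits were R08F11.7 (2.49-fold), F19F10.1 (2.49-fold), F36G3.2 (2.41-fold), F22B7.9 (2.41-fold), Y8A9A.2 (2.35-fold), the chitinase-like chil-22 (at least 2.31-fold), W09C3.7 (2.28-fold), bigr-1 (2.26-fold), C10C5.4 (at least 2.20-fold), R05H10.1 (2.05-fold), Y51H4A.25 (2.05-fold), F19C7.2 (at least 2.00-fold) and C17G10.6 (2.00-fold). The gene trf-2, of the TRAF adaptor family, fell 2.20-fold. Of the 89 called genes with more than 1 probe set, 107 of the 109 further probe sets differed in the same direction as the one read, 38 of them were called, and 0 were called in the opposite direction.

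Further calls of at least 2-fold ended when single arrays were left out. Among the rises, F40G12.5 (2.57-fold) lost its call with ogt-1 replicate 2 or 3 or wild type replicate 2 or 3 or oga-1 replicate 1 removed (highest adjusted p 0.174), and hpo-6 (at least 2.53-fold) with ogt-1 replicate 2 removed (highest adjusted p 0.05). T05F1.9 (at least 2.33-fold) was not called with ogt-1 replicate 2 or 3 or wild type replicate 2 or 3 removed (highest adjusted p 0.11), nor was F26A1.8 (2.22-fold) with ogt-1 replicate 2 or 3 or wild type replicate 2 removed (highest adjusted p 0.0948). The calls of Y41D4B.17 (2.19-fold) and pugs-11 (2.02-fold) ended too, that of Y41D4B.17 with ogt-1 replicate 2 or 3 or wild type replicate 1 or 2 removed (highest adjusted p 0.127) and that of pugs-11 with ogt-1 replicate 2 or 3 or wild type replicate 2 or 3 removed (highest adjusted p 0.112). Among the falls, the dipeptidyl peptidase family gene dpf-6 (3.80-fold) lost its call with ogt-1 replicate 1, 2 or 3 or oga-1 replicate 1 removed (highest adjusted p 0.172), and K02D3.1 (2.62-fold) with ogt-1 replicate 1, 2 or 3 or wild type replicate 1 or 3 removed (highest adjusted p 0.104). The call of pqn-75 (2.53-fold) ended with ogt-1 replicate 2 or 3 removed (highest adjusted p 0.0654) and that of C50F4.8 (2.44-fold) with ogt-1 replicate 2 or 3 removed (highest adjusted p 0.0889). The acyltransferase family gene oac-14 (at least 2.29-fold) was not called with ogt-1 replicate 2 or 3 or wild type replicate 1 or 2 removed (highest adjusted p 0.11), nor was H35N09.1 (2.12-fold) with ogt-1 replicate 2 or 3 removed (highest adjusted p 0.0649). The falls of mfsd-13.2 (2.00-fold) and F37B12.1 (2.00-fold) were lost as well, the first with ogt-1 replicate 2 or 3 or wild type replicate 3 removed (highest adjusted p 0.0743) and the second with ogt-1 replicate 2 or 3 or wild type replicate 3 removed (highest adjusted p 0.106).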
